A study of Mus musculus with 5 samples.

Results

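The cells described here are 950 hepatic stellate cells (HSC) from the liver of DEN+WAD mice that carried the most RNA of 5 genes, Spon2, Podn, Lum, Lpar1 and Col6a5. They were selected on their measured values. In the VitA+Col1a1+ DEN+WAD library, 9912 of 10481 barcodes held 5000 or more unique molecular identifiers (UMIs), which count captured RNA molecules, at least 1 UMI of the stellate gene Lrat and none of Pecam1 or Ptprc, which mark endothelial and blood cells. Each of these eligible cells was scored by its summed UMIs of the 5 genes per 10000 UMIs. The top 10% by score held 992 cells, and 42 of them with UMIs of both Mgp and Dpt, a pair typical of fibroblasts, were removed. The 950 members left were 9.58% of eligible cells and 9.06% of all barcodes, out of 24007 barcodes in the 5 libraries of the study. They were compared with 4948 low-score cells, those in the lower 50% by score. Since the score chose both groups, every difference between them is a description and none was tested.

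Stellate cells are the pericytes of the liver sinusoid, store vitamin A and turn into collagen-producing cells on activation. The sinusoid runs from the portal vein to the central vein, and stellate cells at its ends are known to differ. Zonation studies place Adamtsl2, Rspo3, Spon2, Podn and Loxl1 in stellate cells near the central vein, and Ngfr, Igfbp3, Il34 and Itgb3 in those near the portal vein. R-spondin 3, the product of Rspo3, strengthens Wnt signals that set the gene programme of pericentral hepatocytes. No position in the tissue was measured here, so where the members lay is not known.

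All libraries came from male Rosa26mTmG;Col1a1-Cre mice on a C57BL/6J background, in which Cre driven by the collagen gene Col1a1 turns on a green reporter. Tumors had been initiated with the carcinogen diethylnitrosamine (DEN, 10 mg/kg at 2 weeks of age) and promoted with a liquid Western alcohol diet (WAD, 3.5% v/v ethanol) for 5 months from 6 weeks of age. Control animals received saline and chow. Cells were sorted by vitamin A autofluorescence (VitA) and the green reporter into VitA+Col1a1+ and VitA-Col1a1+ fractions of both groups and a VitA-Col1a1- fraction of DEN+WAD mice. Each fraction was 1 library, and how many animals each pooled is not stated in the sources used here. Intervals below are 95% limits that cover counting error only, and no p-value could be made. The green reporter marks cells in which the Col1a1 promoter was active at any earlier time, so it does not report collagen output at the time of sorting.

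The libraries differed in size and depth. Total UMIs ran from 6145748 in VitA+Col1a1+ chow to 149936344 in VitA+Col1a1+ DEN+WAD. The chow library of the same gate held only 259 barcodes, of which 231 were eligible and 24 were members under its own score limit, with a median of 23172 UMIs a member against 13491 in DEN+WAD. The same rule gave 116 members in VitA-Col1a1+ DEN+WAD. The VitA-Col1a1- library of these mice had 233. In VitA-Col1a1+ chow it left 3, since 44 of the 47 top cells had both Mgp and Dpt, and no ratio was made there. Between 1 and 21 barcodes of each other library also occurred in the main one, and 3 of the 950 members had such a barcode. Depth did not separate members from the low-score cells, with medians of 13491 and 13103 UMIs and of 3639.5 and 3597 genes detected. Mitochondrial RNA made up 2.87% of members' UMIs and 2.74% of those of the low-score cells, and ribosomal protein genes made up 10.8% and 9.45%.

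The score that defined the members was mostly Lum, which encodes lumican, a small proteoglycan that binds collagen fibrils. Lum made up 77.7% of the members' score UMIs and Spon2, which encodes the secreted matrix protein spondin 2, made up 13.1%. Scores ran from 19.17 to 58.9 UMIs per 10000 in members, with a median of 23.5, while the median of the low-score cells was 3.14. The lowest member scored 19.17 and the next cell below the limit 19.15, so the limit cuts a continuous range. Of the members, 14.6% had UMIs of all 5 genes, 33.3% of 4 and 30.3% of 3. Another 5.79% had UMIs of 1 score gene only.

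Summed over cells and given as counts per 1000000 UMIs (CPM), Spon2 stood at 334 CPM in members and 23.1 CPM in the low-score cells, and Podn at 78.8 and 12.6 CPM. Lum stood at 1984 and 261 CPM, Lpar1, a receptor for lysophosphatidic acid, at 89.6 and 22.0 CPM, and Col6a5, a collagen VI chain, at 66.1 and 12.5 CPM. These levels follow from the rule. What the rule did not fix is the level of 1 score gene in cells chosen by the other 4. In such cells Spon2 was 4.45-fold (4.23 to 4.68) the level of the low-score cells by those 4, Podn 4.04-fold, Col6a5 3.33-fold, Lpar1 2.74-fold and Lum 2.16-fold. Each of the 5 left-out genes was also above 1 in the 3 other libraries that could be compared, from 2.52-fold (Lum) to 7.87-fold (Spon2) in VitA+Col1a1+ chow, from 1.51-fold to 3.57-fold for VitA-Col1a1+ cells of DEN+WAD mice and from 1.40-fold to 8.14-fold for their VitA-Col1a1- cells. The 5 genes thus ran together across cells in all 4 libraries. Choosing without Lum kept 46.0% of the members, whereas leaving out any other gene kept 83.7% to 95.3%.

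The label calls these cells stellate, and other stellate genes were present in them. Lrat, which esterifies retinol for storage, stood at 1467 CPM in members and 1528 CPM in the low-score cells, but the rule required it of every cell. Reln, which encodes the stellate glycoprotein reelin, stood at 1245 and 1128 CPM. Des, which encodes the muscle-type filament desmin, stood at 281 and 347 CPM. Of 20 stellate identity genes compared, 1 was higher in members by 1.5-fold or more (Hhip, an inhibitor of hedgehog signals) and 4 were lower, among them Colec10, Colec11 and Pth1r. Across all genes at 20 CPM or more in either group, 5894 in number, 149 (2.53%) were higher in members by 1.5-fold or more and 108 (1.83%) were lower, with a median log2 ratio of -0.02. None of 7 genes of retinoid handling and lipid droplets was past 1.5-fold in either direction.

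Adamtsl2 and Loxl1 were clearly higher in members, and Rspo3 was modestly so. Adamtsl2 (chr2:27079379-27108981, GRCm38, plus strand), whose product binds fibrillin microfibrils, stood at 236 CPM in members (3363 UMIs) and 64.4 CPM in the low-score cells, a ratio of 3.66 (3.50 to 3.83). At least 1 Adamtsl2 UMI was found in 778 of 950 members and in 1994 of 4948 low-score cells. Loxl1, an enzyme that cross-links elastin, stood at 120 CPM and 28.1 CPM, a ratio of 4.29 (4.02 to 4.58). Rspo3 was high in both groups, at 1172 and 843 CPM, a ratio of 1.39 (1.37 to 1.41). Its distributions overlapped, with a median of 11.4 UMIs per 10000 in members and 7.67 in the low-score cells. Sox4, a transcription factor gene, had a ratio of 1.98, and Wls, needed to secrete Wnt proteins, had a ratio of 1.0. The pericentral list counted here held Adamtsl2, Loxl1, Rspo3, Sox4 and Wls, none of them a score gene. Of these 5, 3 were thus higher by 1.5-fold or more, against 2.53% of all genes compared.

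All 6 genes at the opposite end were lower in members by 1.5-fold or more, against 1.83% of all genes, with a median log2 ratio of -1.51. Ngfr, which encodes a low-affinity neurotrophin receptor, stood at 77.6 CPM in members and 284 CPM in the low-score cells, a ratio of 0.273 (0.257 to 0.290). Igfbp3, a binding protein of insulin-like growth factors, stood at 693 and 1535 CPM, a ratio of 0.452 (0.442 to 0.461). The cytokine gene Il34 and the integrin gene Itgb3 had ratios of 0.506 and 0.546. Vtn, which encodes vitronectin, and Gcgr, the glucagon receptor gene, were lowest, at 0.141 and 0.144. Vtn and Gcgr were put on the list because they marked other stellate cells of this library, so their direction is not independent of earlier results.

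**Figure D1:**
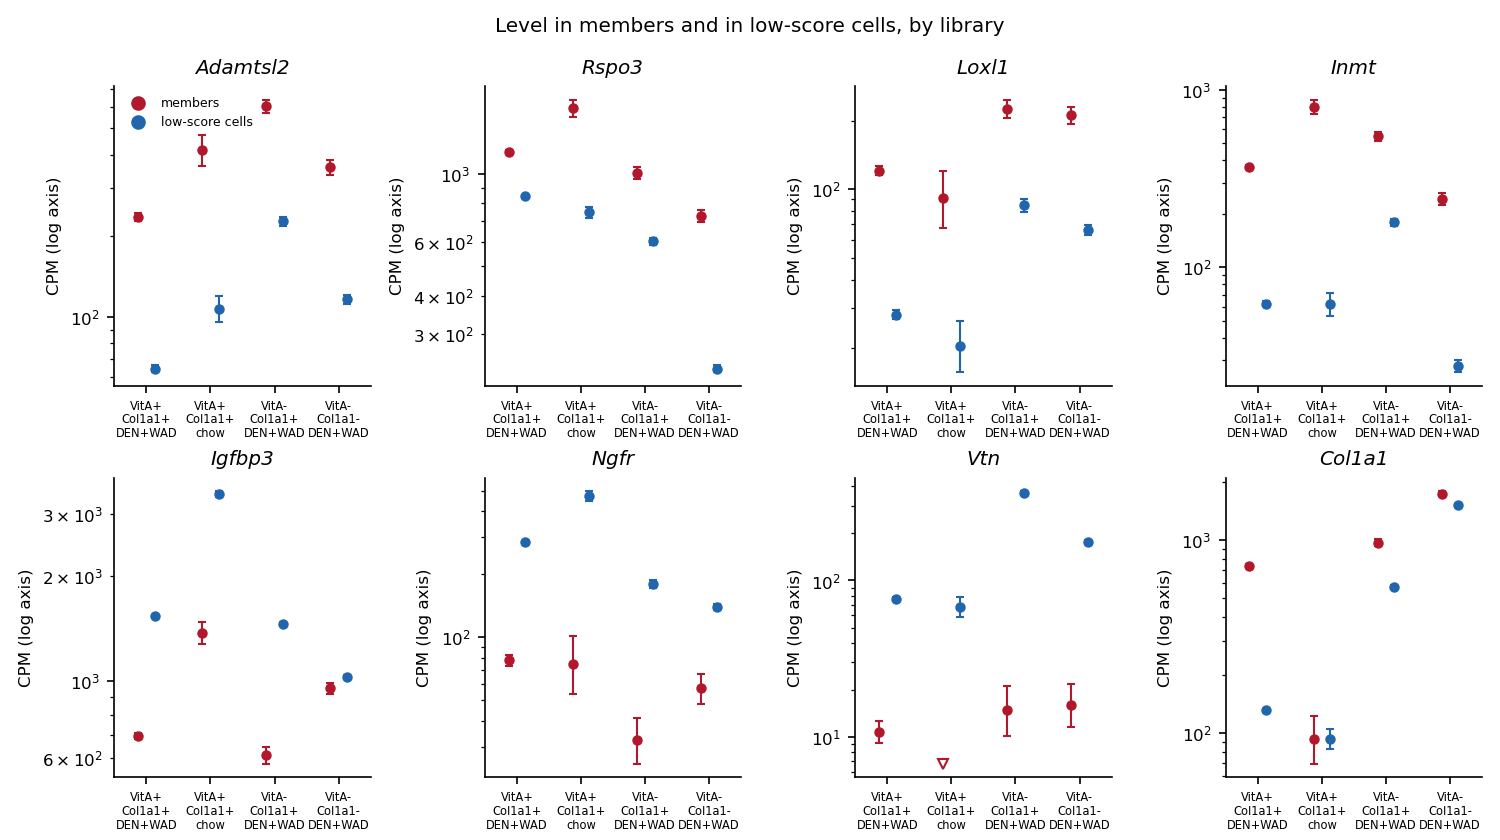
Summed level (CPM, log axis) of 8 genes in members (red) and in the low-score cells (blue) of the 4 libraries that could be compared, with 95% counting intervals; an open triangle is the upper limit of a level with 0 UMIs. Adamtsl2, Loxl1 and Inmt are above the low-score cells in every library and Ngfr and Vtn below it, whereas Col1a1 is at 93.1 and 93.5 CPM in VitA+Col1a1+ chow and at 736 and 131 CPM in VitA+Col1a1+ DEN+WAD.

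The same rule gave the same order in VitA+Col1a1+ chow, likewise in VitA-Col1a1+ DEN+WAD, and only partly so among VitA-Col1a1- cells. In VitA+Col1a1+ chow, where 9.91% of 6441 genes were higher in members by 1.5-fold or more and 10.6% were lower, Rspo3 stood at 1632 and 747 CPM (2.18-fold, 2.02 to 2.36) and Adamtsl2 at 416 and 107 CPM (3.88-fold, 3.26 to 4.62). Again 6 of 6 portal-end genes were lower, with a median log2 ratio of -2.12. Vtn had 0 UMIs in the 24 chow members, and with a floor of 3 UMIs over the group its level was at least 12.4-fold lower than the 67.8 CPM of the chow low-score cells. The Rspo3 difference on the log2 scale was smaller in DEN+WAD than in chow by 0.65 (0.54 to 0.77), while that of Adamtsl2 differed by 0.08, with an interval that includes 0. The share of genes past 1.5-fold is larger in chow with its few cells, so counts there weigh less. In VitA-Col1a1+ DEN+WAD, 4 of 5 pericentral genes were higher and 6 of 6 portal-end genes lower, against 3.97% and 6.4% of all genes. In the VitA-Col1a1- library 3 of 5 were higher (Rspo3, Adamtsl2 and Loxl1) and 3 of 5 lower (Ngfr, Il34 and Vtn). The shares over all genes there were 8.05% and 8.84%. Igfbp3 had a ratio of 0.925, Itgb3 of 0.674 and Sox4 of 1.01.

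Promoter sequence was looked up for these genes to show where they start. Of the 5 score genes and 6 others named above, Podn, Lpar1, Col6a5, Adamtsl2, Ngfr, Vtn, Gcgr and Igfbp3 matched a RefSeq promoter entry (GRCm38.p6). The 250 bases before the start of Adamtsl2, a pericentral gene higher in members of all 4 libraries compared, and of Vtn, the lowest of the portal-end genes, are given 5′ to 3′. Capitals mark matches on either strand to TATAAA (bound by TBP), GGAATG (bound by TEAD factors), TGACTCA (bound by AP-1) or CTTTGA (bound by TCF/LEF factors).
Adamtsl2, chr2:27079129-27079378, plus strand: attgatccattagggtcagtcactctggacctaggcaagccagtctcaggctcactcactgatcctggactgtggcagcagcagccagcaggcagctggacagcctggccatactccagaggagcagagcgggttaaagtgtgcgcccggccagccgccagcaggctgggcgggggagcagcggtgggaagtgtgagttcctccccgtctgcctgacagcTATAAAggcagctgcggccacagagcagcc
Vtn, chr11:78498870-78499119, plus strand: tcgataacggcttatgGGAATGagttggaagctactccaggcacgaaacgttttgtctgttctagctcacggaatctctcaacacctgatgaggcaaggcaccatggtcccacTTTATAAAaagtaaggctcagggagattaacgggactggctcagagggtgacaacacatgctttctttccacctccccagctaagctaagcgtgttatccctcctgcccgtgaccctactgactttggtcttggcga
The capitals show a TATAAA match close to the Adamtsl2 start, and in Vtn 2 overlapping TATAAA matches on opposite strands and 1 GGAATG match. Of all 32851 promoters of this length, 12.4% held TATAAA, 12.6% GGAATG, 4.46% TGACTCA and 13.8% CTTTGA. None of the 4 motifs was found in the 250 bases before any listed start of Podn, Lpar1, Col6a5, Ngfr, Gcgr or Igfbp3.

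Among all genes compared outside the rule, the 15 with the largest excess in members were Cd74, Fam180a, Gas6, S100a6, Inmt, Col1a1, Htra3, Crispld2, Cda, Cpz, Loxl1, Alcam, Serpine2, Ogn and Adamtsl2. They were ranked by the bound of the interval nearest to 1. Inmt, which methylates indole amines, stood at 367 CPM in members and 62.4 CPM in the low-score cells, a ratio of 5.88 (5.65 to 6.12). Htra3, a secreted serine protease gene, stood at 123 and 23.2 CPM, a ratio of 5.28. Alcam, a cell adhesion molecule gene, stood at 133 and 32.0 CPM, a ratio of 4.15, and Ogn, which encodes the small proteoglycan osteoglycin, at 50.7 and 12.5 CPM, a ratio of 4.06. Inmt and Htra3 were found in many members (711 and 607 of 950), while Alcam was found in 478 and Ogn in 264, and 1142 of the members' 1896 Alcam UMIs lay in 130 cells of 1 cluster, cluster 10.

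Other leading genes were carried by few cells. Cd74, the invariant chain of antigen presentation, was found in 40 of the 950 members, and 76.8% of its UMIs were in the 1% of members with most of them. The calcium-binding protein gene S100a6 and the growth factor gene Gas6 had 40.1% and 37.4% of their members' UMIs in the top 1% of cells. Without the 1% of cells of each group with the most UMIs of the gene, Inmt had a ratio of 6.65, Htra3 of 5.61 and Gas6 of 25.6. For Gas6 this took 78.6% of UMIs from the low-score cells and 37.4% from members, which by itself raises the ratio. Of the 30 genes named here, 28 stayed past 1.5-fold in the same direction.

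The 2 exceptions, Alb and Ahsg, are hepatocyte genes, as is Apoa1, and these 3 headed the 15 genes lowest in members. Alb stood at 3.43 CPM in members and 106 CPM in the low-score cells, but 1 low-score cell alone carried 6823 Alb UMIs. Of the low-score cells' UMIs of the 3 genes, 98.1% to 100% lay in the top 1% of cells, so their ratios describe a few barcodes. The other 12 were Vtn, Myh11, Lsamp, Gcgr, Cyp4b1, Tmem178, Mest, Clec4g, Ngfr, Rgs4, Ndufa4l2 and Procr. Rgs4, which damps G protein signals, stood at 171 CPM in members and 569 CPM in the low-score cells, a ratio of 0.302 (0.289 to 0.314). Procr, the endothelial protein C receptor gene, stood at 9.11 and 33.4 CPM, a ratio of 0.273, and Ndufa4l2, a mitochondrial subunit gene known to respond to low oxygen, at 35.7 and 122 CPM, a ratio of 0.293.

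**Figure D2:**
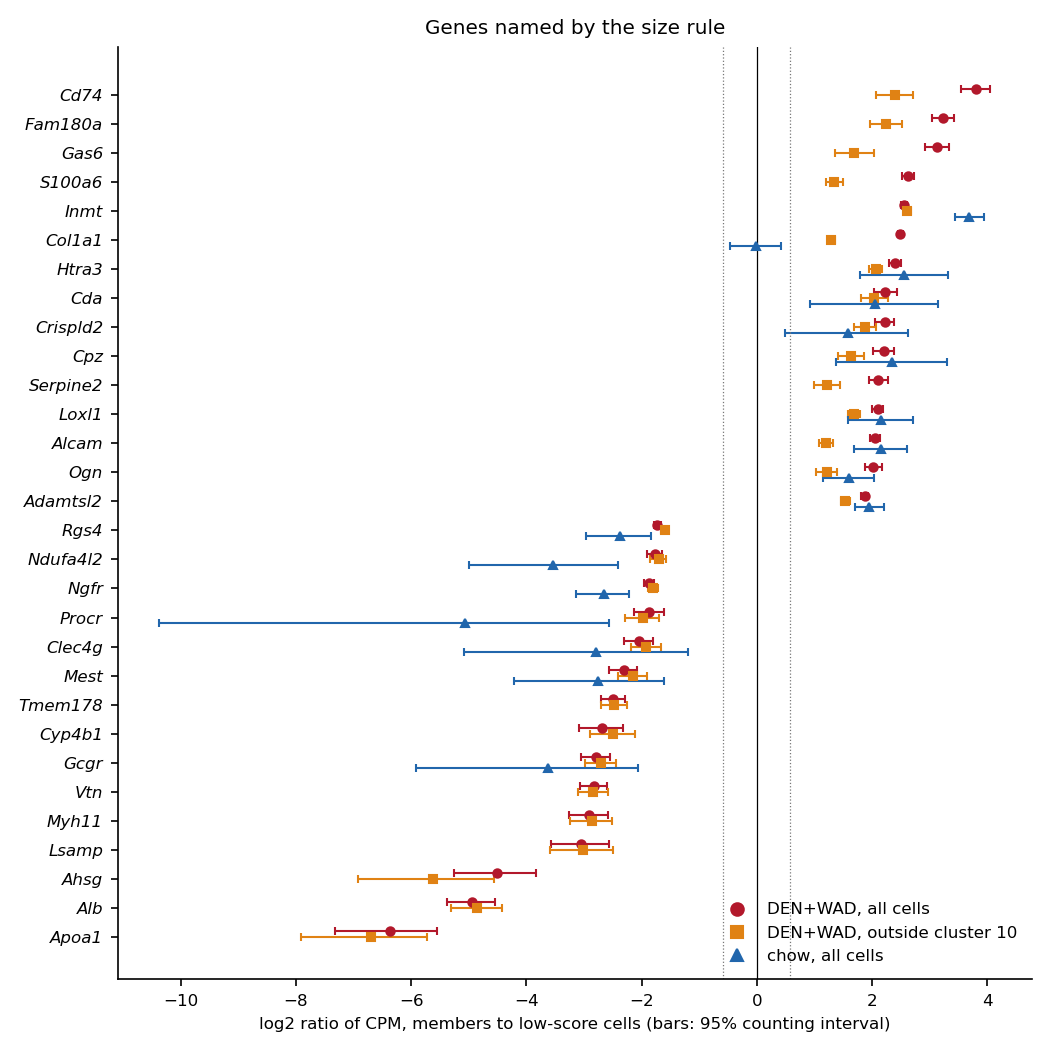
Log2 ratio of CPM of members to the low-score cells for the 30 genes named by size of ratio, in VitA+Col1a1+ DEN+WAD with all cells (red), without cluster 10 of the eligible cells (orange) and in VitA+Col1a1+ chow (blue, where a gene was compared and had UMIs in both groups), with 95% counting intervals. Dotted lines mark 1.5-fold, and all 30 genes stay past them without cluster 10, whereas Col1a1 has a ratio of 0.995 in chow.

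Among the named genes compared in chow, 9 of 10 of the higher set and 12 of 12 of the lower set were past 1.5-fold in the same direction. Col1a1 was the exception. Cd74, Fam180a, Gas6, S100a6 and Serpine2 were under 20 CPM in both chow groups. In VitA-Col1a1+ DEN+WAD, where 3.97% of genes were higher and 6.4% lower in members, the counts were 12 of 14 and 12 of 12. In VitA-Col1a1- DEN+WAD, where 8.05% were higher and 8.84% lower, they were 12 of 15 and 13 of 13. S100a6 ran in the opposite direction, past 1.5-fold, in both VitA- libraries. In these 2 libraries the low-score cells included many rich in the smooth muscle actin gene Acta2, at 1306 and 2660 CPM against 115 CPM in the main library.

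Many collagen genes were higher in members of VitA+Col1a1+ DEN+WAD, none was in chow, and few were in the VitA- libraries. Of 13 collagen genes compared in VitA+Col1a1+ DEN+WAD, 7 were higher by 1.5-fold or more, against 2.53% of all genes. None was lower, and the median log2 ratio was 0.90. The 7 were Col1a1, Col1a2, Col3a1, Col5a2, Col6a1, Col6a2 and Col6a3, chains of fibrillar collagens and of collagen VI. Col1a1 stood at 736 CPM in members and 131 CPM in the low-score cells, a ratio of 5.62 (5.46 to 5.78). Col3a1 stood at 2128 and 808 CPM, a ratio of 2.63, and Col1a2 at 1158 and 470.0 CPM, a ratio of 2.46. In chow none of 12 was higher and 3 were lower, against 9.91% and 10.6% of all genes, with a median of -0.12. The 3 were the network collagens Col4a1 and Col4a2 and the fibril-associated Col14a1. Chow Col1a1 was at 93.1 CPM in members (51 UMIs) and 93.5 CPM in the low-score cells (273 UMIs), a ratio of 0.995 (0.723 to 1.35). In VitA-Col1a1+ DEN+WAD 3 of 14 were higher (Col1a1, Col6a3 and Col15a1), against 3.97% of all genes, with Col1a1 at 972 and 570 CPM. The VitA-Col1a1- library had 3 of 15 higher (8.05% of all genes), all chains of collagen VI, and its Col1a1 ratio was 1.15 (1.12 to 1.19). Col4a1 and Col4a2 were lower in both.

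Col1a1 was therefore 7.90-fold (6.01 to 10.6) higher in DEN+WAD members than in chow members, against 1.40-fold (1.24 to 1.58) between the low-score cells. The 2 log2 ratios of members to the low-score cells differed by 2.50 (2.06 to 2.93). The libraries differ in DEN treatment, diet, ethanol, depth and cell number at once, and these cannot be told apart with 1 library each. Most members had little Col1a1. Their median was 1.5 UMIs per 10000, 10% of members had 11.4 or more and the highest cell had 184, while 652 of 950 had any. The 1% of members with most Col1a1 held 29.4% of its UMIs.

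The eligible cells were clustered on genes outside the rule, without the 5 score genes, Lrat, Mgp and Dpt, to see where the members fell. They were spread over 12 of 14 clusters and made up at most 27.3% of any cluster of 50 cells or more. Clusters 3 and 1, both led by Inmt, held 28.0% and 24.8% of members, against 12.3% and 13.5% of eligible cells. Cluster 10, led by Mfap4, Fmo2, Fmod, Wt1 and Gas6, held 130 members (13.7%) against 4.81% of eligible cells, and also 65 of the 81 eligible cells with both Mgp and Dpt. Cluster 11, with Kcnk3 and Clstn2 among its leading genes, held 12.3% of eligible cells and 0.526% of members. Among the 15 nearest neighbours of a member, 27.4% on average were members, against 2.91% for a low-score cell.

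The 130 members in cluster 10 differed from the other 820. Dpt stood at 529 CPM in them and 52.5 CPM in the others, and Gas6 at 184 and 9.70 CPM. Wt1, a mesothelial and stellate lineage factor, was found in 57 of the 130 and in 21 of the 820, and the microfibril gene Mfap4 in 19 and 3. Mgp had no UMI in these 130 cells, which follows in part from the rule. Lrat was lower in them, at 966 against 1569 CPM, as was Rspo3, at 663 against 1275 CPM, while Adamtsl2 was higher, at 541 against 173 CPM. Spon2 stood at 489 and 302 CPM, and Lum at 1976 and 1985 CPM.

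Much of the collagen excess lay in these 130 cells. Col1a1 was at 2831 CPM in members of cluster 10 and at 308 CPM in the other 820. Without cluster 10 in either group, the ratio of members to the low-score cells was 2.45 (2.36 to 2.55) for Col1a1, 1.83 for Col3a1 and 1.49 for Col1a2. Collagens past 1.5-fold then numbered 4 of 12 (Col1a1, Col3a1, Col6a1 and Col6a3), and Col1a1 in members was 3.31-fold (2.51 to 4.45) the chow level. A stricter step left out every cell with 3 or more UMIs of 13 portal fibroblast genes. It removed 5152 of 9912 eligible cells and 621 of the members. Both groups were then chosen again by score from the cells left, giving 476 top cells and 2380 low-score cells. The top cells thus included cells that were not among the members. Between these new groups the Col1a1 ratio was 2.03 (1.90 to 2.17) and the collagen median log2 ratio was 0.10. The portal fibroblast list as a whole summed to 552 CPM in members and 271 CPM in the low-score cells in DEN+WAD, and to 201 and 202 CPM in chow. Its part in the collagen difference was not tested.

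The zonation genes kept their direction without cluster 10, though several ratios shifted. The ratio of Adamtsl2 was then 2.90 (2.75 to 3.06) in place of 3.66, and of Loxl1 3.22 in place of 4.29. That of Inmt was 6.11, of Rspo3 1.51, of Igfbp3 0.456 and of Ngfr 0.287. Rspo3 thus came past 1.5-fold. All 30 named genes stayed past 1.5-fold in the same direction, though Gas6 had a ratio of 3.23 in place of 8.74, S100a6 2.54 in place of 6.18, Cd74 5.24 in place of 13.9 and Fam180a 4.75 in place of 9.36. Serpine2 went from 4.32 to 2.32, Alcam from 4.15 to 2.30, Ogn from 4.06 to 2.31 and Ahsg from 0.0441 to 0.0204. The stellate identity genes Colec10, Colec11 and Pth1r were no longer past 1.5-fold.

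Within single clusters the members still differed from the low-score cells. In each of 8 clusters with 20 or more cells of both kinds, Inmt (2.31-fold to 7.36-fold), Htra3 and Loxl1 were higher and Ngfr (0.366 to 0.643), Igfbp3, Vtn and Gcgr were lower by 1.5-fold or more. Adamtsl2 was past 1.5-fold in 5 of 8, with ratios of 1.28 to 2.78. Rspo3 was past it in none, with ratios of 1.09 to 1.26. Col1a1 was past it in 4 of 8, from 0.932 in cluster 7 to 5.05 in cluster 10.

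**Figure D3:**
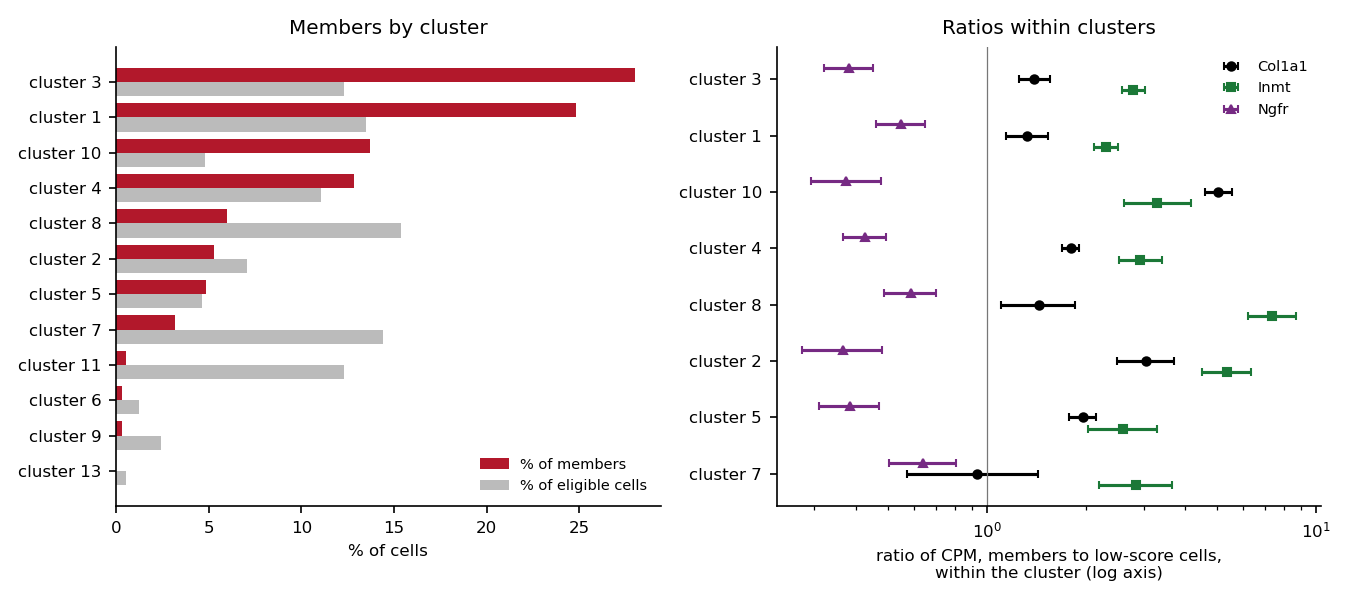
Left, share of the 950 members (red) and of the 9912 eligible cells (grey) in each cluster of 50 cells or more, in %; right, ratio of CPM of members to the low-score cells within each cluster with 20 or more cells of both (log axis), for Col1a1, Inmt and Ngfr, with 95% counting intervals. Inmt lies above 1 and Ngfr below 1 in all 8 clusters, while Col1a1 runs from 0.932 to 5.05.

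Levels of several genes changed step by step with the score. Over 10 bins of eligible cells ordered by score, Adamtsl2 went up at every step from 38.3 to 234 CPM, Inmt from 26.9 to 368 CPM and Rspo3 from 678 to 1169 CPM. Ngfr went down at every step from 369 to 78.2 CPM, and Igfbp3 went from 1771 to 695 CPM with 1 step against the trend. Lrat stayed between 1462 and 1597 CPM. Col1a1 bent late, from 90.2 CPM in the lowest bin to 415 CPM in the bin below the top and 727 CPM in the top bin. Over 4 bins of the chow cells, Col1a1 stood at 90.4, 96.7, 100.2 and 105 CPM, while Adamtsl2 went from 95.2 to 373 CPM and Ngfr from 569 to 102 CPM.

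**Figure D4:**
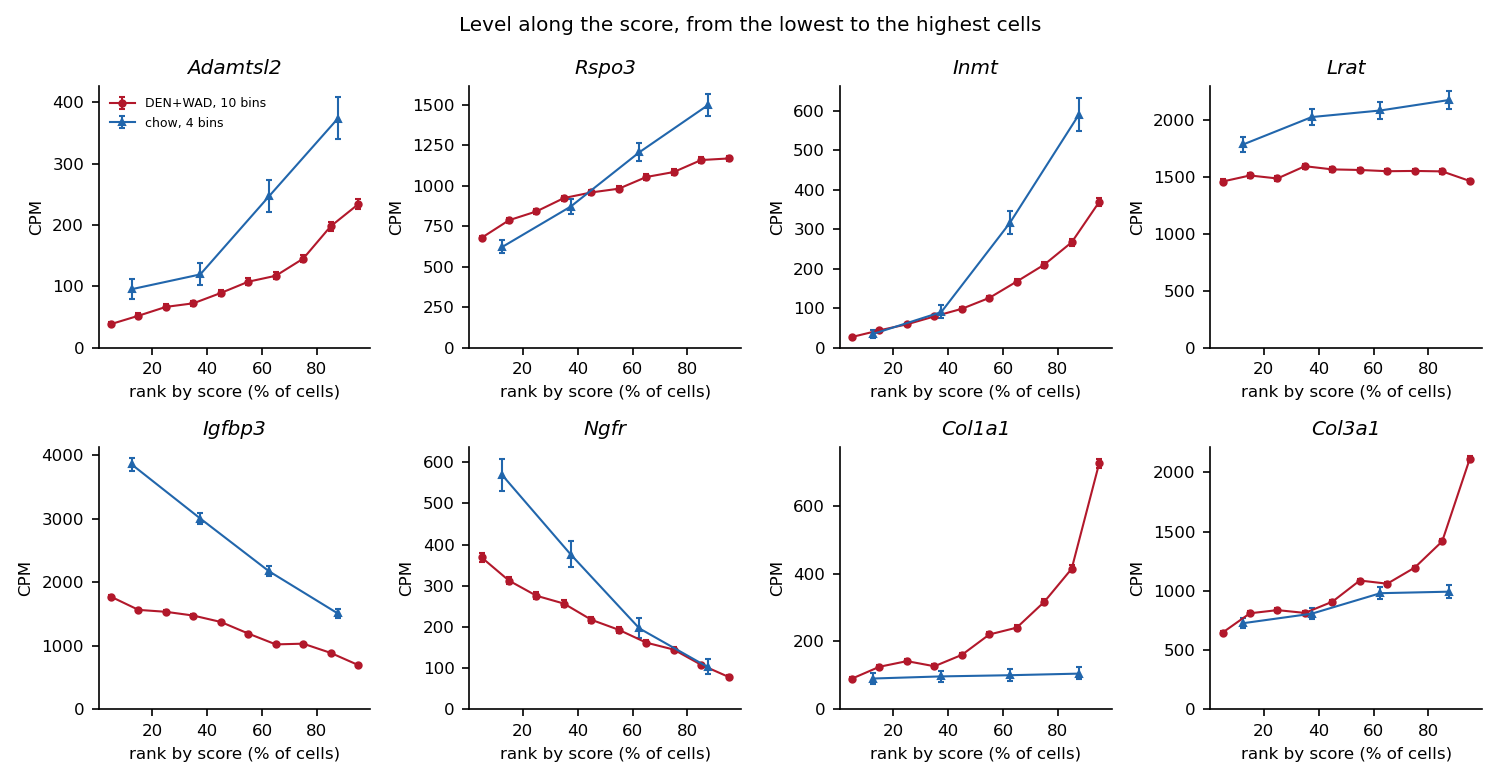
Level (CPM, linear axes from 0) of 8 genes over eligible cells ordered by score, in 10 bins for VitA+Col1a1+ DEN+WAD (red) and 4 bins for VitA+Col1a1+ chow (blue), with 95% counting intervals. Adamtsl2, Rspo3 and Inmt climb and Igfbp3 and Ngfr decline in both libraries, whereas Col1a1 reaches 727 CPM at the top of the DEN+WAD score and 105 CPM at the top of the chow score.

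The closest contrast within the gate is with cells rich in Ngfr, Vtn and Gcgr. The top 10% of eligible cells by those 3 genes held 991 cells, and 1 cell was in both sets, which is 0.105% of the members and 0.101% of the other set. Of the 991, 83.2% were low-score cells. Adamtsl2 stood at 236 CPM in members, 36.4 CPM in the Ngfr, Vtn and Gcgr cells and 107 CPM in the other eligible cells. Inmt stood at 367, 25.4 and 134 CPM, Rspo3 at 1172, 532 and 992 CPM, and Col1a1 at 736, 93.05 and 221 CPM. Lrat was at 1467, 1373 and 1558 CPM. The remaining cells lay between the 2 sets in each gene but Lrat.

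Several matrix and growth factor genes were higher in members. Of 23 genes of matrix assembly and turnover, 8 were past 1.5-fold upward (Sparcl1, Eln, Tnc, Timp1, Mmp2, Mmp23, Adamts2 and Adamts5) and none downward. Eln, the elastin gene, stood at 43.6 and 13.6 CPM, a ratio of 3.21 (2.90 to 3.56), and Adamts5, an aggrecan-degrading protease gene, at 210 and 85.3 CPM, a ratio of 2.46. Both kept this in chow, at 3.39 and 2.41. The tissue inhibitor of metalloproteinases gene Timp1 differed between libraries, at 137 and 57.1 CPM in DEN+WAD and with 0 and 6 UMIs in chow. Of 4 small proteoglycan genes outside the score, Ogn alone was past 1.5-fold, and the abundant Dcn and Bgn had ratios of 1.11 and 1.08.

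Of 13 growth factor and receptor genes, 5 were higher in members (Igf1, Gas6, Ereg, Fgfr1 and Fgfr2), against 2.53% of all genes. Fgfr2, a receptor of fibroblast growth factors, stood at 667 and 426 CPM, a ratio of 1.57, and at 1.85 in chow. Igf1, insulin-like growth factor 1, stood at 26.3 and 6.72 CPM, a ratio of 3.91, and the epidermal growth factor family ligand Ereg at 36.9 and 16.8 CPM, a ratio of 2.20. Without cluster 10, Ereg, Fgfr1 and Fgfr2 remained among 11 compared.

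Of 7 Wnt genes compared in DEN+WAD, Frzb, Dkk3 and Fzd4 were higher, against 2.53% of all genes, and none was lower. The median log2 ratio of 0.48 was that of Rspo3, which was not past 1.5-fold. Dkk3, of the dickkopf family of secreted Wnt modulators, stood at 55.2 and 18.1 CPM, a ratio of 3.05 (2.79 to 3.34), and Frzb, which binds Wnt ligands, at 168 and 107 CPM, a ratio of 1.57. Fzd4, a Wnt receptor gene, had a ratio of 1.83. In chow, where 9.91% of all genes compared were higher and 10.6% lower, 6 of 8 were higher. Rspo3, Axin2 and Nkd1 were the additional ones, and Fzd1 was lower. Axin2 and Nkd1 are known targets of Wnt signals. Of 20 BMP and TGF-beta genes in DEN+WAD, Tgfbr1 and Ltbp1 were higher and Id1, a target of BMP signals, was lower, at 212 and 431 CPM, a ratio of 0.493.

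Contractile genes mostly stayed within 1.5-fold in VitA+Col1a1+ DEN+WAD, and most were lower in members of the other libraries. Of 10 contractile genes only Myh11 was past 1.5-fold (lower), and Acta2 and Tagln, which encode smooth muscle actin and transgelin, had ratios of 1.09 and 1.08. In chow 7 of 9 contractile genes were lower in members, against 10.6% of all genes compared. Tagln stood there at 130 CPM in members (71 UMIs) and 587 CPM in the low-score cells. In the VitA- DEN+WAD libraries, 10 of 12 were lower in Col1a1+ members (6.4% of all genes), with a median log2 ratio of -1.52. In Col1a1- members 13 of 13 were lower (8.84% of all genes), with a median of -2.16. Of 12 chemokine and inflammatory genes in DEN+WAD, 3 were lower (Ccl2, Cxcl10 and Serpina3g), against 1.83% of all genes. Ccl2, which draws monocytes, stood at 369 and 760 CPM, a ratio of 0.485, and at 23.7 CPM (13 UMIs) and 296 CPM in chow. None of 12 interferon genes, 18 immediate early and heat shock genes or 6 genes of lysophosphatidic acid signalling other than Lpar1 was past 1.5-fold in VitA+Col1a1+ DEN+WAD. In chow members 6 of 12 interferon genes were lower (10.6% of all genes), with a median log2 ratio of -0.55. In VitA-Col1a1+ DEN+WAD 3 were lower (6.4% of all genes), and in the VitA-Col1a1- library 3 were higher (8.05%). Their difference between libraries was not tested. Of the immediate early and heat shock genes, 1 was lower in chow members. Atf3, Hspa1a, Hspa1b, Dnajb1 and Hsp90aa1 were lower in both VitA- DEN+WAD libraries, as was Btg2 in the Col1a1+ one. In the Col1a1- one, Fosb, Ier3 and Nr4a1 were higher, with a list median log2 ratio of 0.18. Of 14 guidance and adhesion genes, Robo2 and Itga8 were higher and Efnb1 and Cadm1 lower.

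Of 12 genes that the study dealt with, 4 reached 20 CPM in DEN+WAD and none of these was past 1.5-fold. Cyp1b1, a cytochrome P450 gene, was under that minimum, at 11.4 CPM in members (162 UMIs) and 1.45 CPM in the low-score cells, a ratio of 7.85 (6.08 to 10.2). It was found in 88 of the 950 members, stood at 63.4 CPM in cluster 10 and 1.43 CPM in the other eligible cells, and had no UMI in either chow group. It was past 1.5-fold in both VitA- DEN+WAD libraries, at 43.8 and 19.7 CPM in the Col1a1+ one and 40.6 and 13.9 CPM in the Col1a1- one. Scd2, which encodes stearoyl-CoA desaturase 2, stood at 71.8 CPM in members and 58.9 CPM in the low-score cells, a ratio of 1.22, and at 109.5 and 62.0 CPM in chow, a ratio of 1.77 (1.30 to 2.38). Ltb4r2, the leukotriene B4 receptor 2 gene, had 0 UMIs in the 950 members and 2 in the low-score cells, which is under the 3 UMIs taken as the limit of detection in both.

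Lymphoid, cholangiocyte and erythroid markers were scarce in members. Macrophage, mesothelial, smooth muscle and pericyte genes summed to more than in the low-score cells, as did the portal fibroblast genes given above. Endothelial genes summed to 116 CPM in members and 134 CPM in the low-score cells, with Clec4g the only one past 1.5-fold, and lower. Macrophage genes summed to 38.8 and 3.77 CPM, of which Cd74 made up 34.7 CPM in members, and 5 of the 12 had no UMI in members. Ptprc on this list and Pecam1 on the endothelial list had none because the rule required it. Mesothelial genes summed to 14.6 and 1.98 CPM, with 5 of 7 at 0 in members. Lymphoid and cholangiocyte genes summed to 1.26 and 5.26 CPM in members, and erythroid genes had no UMI. Smooth muscle and other pericyte genes summed to 1516 CPM in members and 1334 CPM in the low-score cells. Of 4 compared, Myh11 alone was past 1.5-fold, and lower. Of 4 pericentral hepatocyte genes compared, the bile acid enzyme gene Cyp27a1 was higher in members, at 57.9 and 34.0 CPM, and their sums were 795 and 794 CPM. The sum for periportal hepatocyte genes was 30.1 and 28.6 CPM.

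In the VitA+Col1a1+ gate, cells past the DEN+WAD score limit of 19.17 were not more frequent in DEN+WAD than in chow. After each cell was thinned to 5000 UMIs, they were 11.0% (10.4 to 11.6, Clopper-Pearson) of VitA+Col1a1+ eligible cells from DEN+WAD mice and 18.6% of those from chow mice (13.8 to 24.2, 43 of 231 cells). Unthinned, they were 9.58% and 15.6%. Thinned shares of the VitA-Col1a1+ fraction were 20.9% after DEN+WAD and 5.41% on chow, and the VitA-Col1a1- fraction had 20.6%. These shares leave out cells with both Mgp and Dpt, which in the VitA-Col1a1+ gate made up another 147 cells past the limit on chow (of 462 eligible) and 187 after DEN+WAD (of 1732). With them, the shares were 37.2% in chow and 31.7% in DEN+WAD, so the order turns with that step. Without Col6a5 in the score, the chow share was 11.7% against 10.2% in DEN+WAD, a narrower gap. Col6a5 stood at 299 CPM in chow members and 66.1 CPM in DEN+WAD members. How the sort sampled each fraction sets these shares as well, and its part was not tested.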

How the data were processed

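Cells sorted from mouse liver were run on the 10x Genomics 3' platform, with 1 library per group. Both v3.1 and v2 of the kit are named in the labels. Reads were aligned to mm10 and UMIs counted by the authors with Cell Ranger, and the files' headers name version 3.1.0 for the Col1a1+ libraries and 6.1.2 for VitA-Col1a1-. The deposited values were raw UMI counts for 31053 genes per barcode, with a lowest barcode total of 500 UMIs. Groups were taken from the labels alone. Coordinates are 1-based, from GENCODE M21 on GRCm38, and promoters are from RefSeq.

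Members were the top 10% of eligible cells by summed Spon2, Podn, Lum, Lpar1 and Col6a5 UMIs per 10000, without cells with UMIs of both Mgp and Dpt, and the lower 50% by score, called low-score cells, were the comparison. Cells with both genes were left out of each. The members and the 30 gene lists were chosen with earlier results of these data known. UMIs were summed over cells and scaled to 1000000 (CPM). Genes at 20 CPM or more in either group were compared, with 1.5-fold as a rule of size. Levels carry exact Poisson limits, ratios conditional binomial limits and shares Clopper-Pearson limits, at 95%, for counting error only, and a group with 0 UMIs was given a floor of 3. No test across samples was possible with 1 library a group. The 30 named genes were the 15 highest and the 15 lowest by the interval bound nearest to 1, without genes of the rule, mitochondrial genes and genes without a name. Any gene of the lists could also be named.

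Eligible cells were clustered in scanpy 1.11.5 (2000 variable genes, 30 components, 15 neighbours, Leiden resolution 1, seed 7). Scrublet called 1 of 10481 barcodes a doublet (0.00954%), too few for the caller to have worked, and no doublets were removed. Computation used Python 3.11.15, numpy 2.4.6, scipy 1.17.1, pandas 2.3.3, anndata 0.12.19, igraph 0.11.9 and matplotlib 3.10.9, with a normalization factor from edgeR 4.0.16 in R 4.3.3. Ratios and intervals were tested on simulated data. Alternatives changed the depth, the score, the size of the top set, the scaling and the comparison cells. Those without cluster 10, or without the 1% of cells with the most UMIs of a gene, were chosen after seeing the data.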

Additional observations from a re-analysis of the deposited data

Results flagged for a closer look

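In 3 genes, members differed in opposite directions from the low-score cells in the 2 VitA+Col1a1+ libraries, each past its counting interval, and past 1.5-fold in chow. The difference was not tested, as each library is a single sample. The contractile gene Tagln had a log2 ratio of 0.11 in DEN+WAD and of -2.18 in chow. The neutrophil chemokine gene Cxcl1 had 0.13 in DEN+WAD and -2.43 in chow. The transferrin gene Trf had -0.11 in DEN+WAD and 0.82 in chow. The chow values rest on 24 members, with 71 Tagln, 38 Cxcl1 and 79 Trf UMIs in them.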

How the results depend on the processing

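No paired analysis was possible because the labels give no replicate numbers and each group is 1 library, and no replicate could be left out. Of 142 values recomputed under the alternatives, no log2 ratio changed sign. Counts of genes and shares of cells, which are among the 142, could not have done so. In all, 83 values stayed within the counting interval or within 1.5 times of a count. Counting intervals are narrow in the main library, so small shifts leave them. The cause of these shifts was not tested. The scrublet alternative says nothing, as it removed 1 cell. In VitA+Col1a1+ chow, 24 members and a floor of 5.48 CPM limit what could be seen.

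The counts of genes past 1.5-fold, 149 higher and 108 lower, became 91 and 58 against all other eligible cells, 315 and 228 at 5 CPM or more, 2349 and 3745 with no minimum, and 62 and 32 past 2-fold. With cells of 3 or more portal fibroblast UMIs left out, and both groups chosen again, 92 were higher and 100 lower. TMM scaling shifted log2 ratios by -0.00020.

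The collagen median log2 ratio of 0.90 became 1.03 with the top 5%, 0.73 with the top 20%, 0.69 against all other eligible cells, 0.76 with the thinned score, 0.76 as a mean over cells, 0.78 without cells above the 95th percentile of UMIs, 0.76 without Spon2 in the score, 0.10 without portal fibroblast UMIs, 0.51 without cluster 10 and 0.82 without the 1% of cells with the most UMIs of each gene.

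In the same order of settings the median of the portal-end list, -1.51, became -1.63, -1.29, -1.21, -1.33, -1.54 as a mean over cells, -1.31 without Spon2, -1.40 without portal fibroblast UMIs, -1.47 without cluster 10 and -1.56 without the 1% of cells. It was -1.35 with levels from UMIs not used to choose cells, -1.57 without Lum and -1.48 without Lpar1 in the score.

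The log2 ratio of Adamtsl2, 1.87, became 2.05 with the top 5%, 1.75 with the top 20%, 1.23 against all other eligible cells, 1.68 with the thinned score, 1.76 with levels from UMIs not used to choose cells, 1.45 without portal fibroblast UMIs, 1.54 without cluster 10, 1.94 without the 1% of cells, and 1.56, 1.75, 2.31 and 1.80 without Spon2, Podn, Lum or Lpar1 in the score. That of Rspo3, 0.48, became 0.30 against all other eligible cells, 0.44 with the thinned score, 0.56 as a mean over cells, 0.52 without cells above the 95th percentile, 0.65 without portal fibroblast UMIs and 0.59 without cluster 10.

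The lowest log2 ratio of a left-out score gene with the thinned score was 0.94 in VitA+Col1a1+ DEN+WAD, 0.76 for the chow library of that gate and 0.28 for VitA-Col1a1+ DEN+WAD, in place of 1.11, 1.33 and 0.60. The share past the score limit in VitA+Col1a1+ DEN+WAD, 11.0%, was 9.58% at full depth, 9.39% at 10000 UMIs, and 12.0%, 10.1% and 10.2% without Lum, Lpar1 or Col6a5. On chow the VitA+Col1a1+ share was 29.4% without Lum and 11.7% without Col6a5, in place of 18.6%.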

Other observations

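When members were chosen on a random 50% of each cell's UMIs and levels were read from the rest, the score genes kept a smaller excess. Spon2 was 9.88-fold (9.17 to 10.6) higher in the 958 cells chosen than in their low-score cells, against 15.5-fold in the UMIs that chose them, and Lum was 5.42-fold against 8.66-fold. Podn was 4.55-fold, Col6a5 4.14-fold and Lpar1 3.31-fold. Genes outside the rule hardly moved, with Col1a1 at 5.27-fold in the unused UMIs and 5.35-fold in the others, Adamtsl2 at 3.39-fold and 3.36-fold and Ngfr at 0.336 and 0.311. Timp1 had UMIs in 70 of the 130 members in cluster 10 and in 207 of the other 820, at 383 and 86.8 CPM. Acta2 stood at 363 and 77.9 CPM in the same cells and had UMIs in 34 and 72 of them.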
